A study of Arabidopsis thaliana with 21 samples.

Results

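The glutathione transferases of the tau class (GSTU1 to GSTU28, 28 genes) and the phi class (GSTF2 to GSTF14, 13 genes) of Arabidopsis thaliana were followed across mutants of DXO1, a gene for an RNA 5′ end processing enzyme. The 41 genes were chosen by class name and locus, not by a threshold on their values, from 33602 genes in the mRNA table, and all 41 carried the same name in the table and in RefSeq. The family itself was chosen with earlier results of these data known, so its counts beside those of all genes are descriptive only. mRNA was sequenced from rosette leaves, as labelled, of 16-day-old plants of 3 genotypes with 3 libraries each: the accession Col-0, and the mutants dxo1-1 and dxo1-2 in the same table. Small RNA was sequenced from 10-day-old plants of 4 genotypes with 3 libraries each: Col-0, dcl4-2, dxo1-2 and the double mutant dxo1-2dcl4-2, where dcl4-2 is an allele of the small RNA producing nuclease gene DCL4. Those small RNA samples are called rosette leaves in one label and seedlings in another. How the alleles were made, how many plants went into a library and whether libraries came from separate plantings were not given in the sources used here, so every p-value reflects only library-to-library spread, which may be technical.

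Glutathione transferases join the tripeptide glutathione to reactive or toxic molecules, which can then be moved into the vacuole. Tau and phi enzymes are large plant classes that use a serine in the active site. Many of their genes are known to respond to herbicides, oxidants, salicylic acid or pathogens, and some members have set tasks in camalexin, glucosinolate or anthocyanin metabolism.

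The mRNA of DXO1 itself stood at 10.04, 11.97 and 10.8 FPKM (fragments per kilobase of transcript, scaled to library size) in Col-0, 193, 195 and 249 in the dxo1-1-labelled libraries and 6.67, 5.88 and 7.64 in dxo1-2. The mRNA level alone does not tell whether either allele loses DXO1 function, which was not tested. The dxo1-1 group is therefore called here by its label alone, and no direction below is read as an effect of lost DXO1. Sequencing depth, estimated from the steps between low FPKM values, was 17.3 M to 20.6 M fragments per mRNA library, with an estimated fragment length of 325 bases in Col-0 replicates 1 and 3 and 375 in the other 7 libraries. The 5 leaf markers passed the test as lower in both mutants, and their summed level was 84008 to 88956 FPKM in Col-0, 49234 to 55140 in the dxo1-1-labelled libraries and 52110 to 53151 in dxo1-2. Summed root markers lay at 15.7 to 18.0, 21.3 to 22.4 and 9.89 to 12.8 FPKM in the same order, with IRT1, an iron transporter of the root surface, at 0 in both mutants. Of 4 root markers tested, 2 passed as higher and 1 as lower in the dxo1-1-labelled libraries, and 1 and 3 in dxo1-2. Flower and meristem markers summed to 0.76 to 1.11, 3.07 to 4.09 and 2.88 to 4.18 FPKM, with CLV3, a stem cell peptide gene, at 0 in every group. The 1 flower and meristem marker that was tested passed as higher in both mutants, by 1.44 and 1.35 log2 units. With the whole list at 1.11 FPKM or less in Col-0, this gene reached the filter of a mean of 1 FPKM through the mutant libraries. Its difference therefore had to appear and is not read as a result. Seed storage markers summed to at most 0.52 FPKM, with 3 of 5 at 0 in each group. The part of these shifts in the values below was not tested. In bulk samples, fewer cells of a type and less RNA per cell cannot be told apart.

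Of the members tested, 19 were called higher in both mutants and 5 lower in both. The share of all tested genes called alike in both mutants was not computed, so nothing particular to the members is read from these counts. Of the 41 genes, 33 reached a mean of 1 FPKM and were tested with limma on log2(FPKM + 1) within a fit of all 18378 such genes, at an adjusted p under 0.05. In the dxo1-1-labelled libraries, 23 members rose, 8 fell and 2 did not pass, where 49.6% of all tested genes were called higher and 26% lower. In dxo1-2, 19 rose, 5 fell and 9 did not pass, beside 51.8% called higher and 21.2% lower among all genes. With FPKM as deposited, the share of tested members called higher in dxo1-2, 57.6%, is near that of all genes. With Col-0 replicate 2 as the only Col-0 library, the one with the mutants' fragment length, 20 members were called higher and 7 lower in the dxo1-1-labelled libraries, and 18 and 5 in dxo1-2. The spread in that fit comes from the mutant libraries alone, and the lone Col-0 library is assumed to vary like them. With each library centred on its median, which moved the median of all genes from 0.21 to -0.10 in the first comparison and from 0.25 to -0.10 in the second, the splits were 20 higher and 11 lower, and 17 higher and 12 lower. Of all 18378 genes, the centred fit called 6325 higher and 8002 lower in the first comparison. In the second it called 5932 higher and 7807 lower. Both comparisons use the same Col-0 libraries.

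Large increases were found in both classes. A log2 difference of at least 1 was passed upward by 17 of 33 tested members in the dxo1-1-labelled libraries and by 14 in dxo1-2, where 17.1% and 15.5% of all tested genes passed. Downward it was passed by 1 member in each, GSTU13, where 5.2% and 3.24% of all genes passed. The upward counts, and those of members called higher, include GSTU3 and GSTU9 in both mutants and GSTU12 in the dxo1-1-labelled libraries. These genes reached the filter only through mutant libraries where they are high, so their rise had to appear. The shares over all genes were taken with the same filter. By class, 16 tau members rose and 5 fell of 22 tested in the dxo1-1-labelled libraries, and 7 phi members rose and 3 fell of 11 tested. In dxo1-2 the tau split was 13 and 4, and the phi split 6 and 1. After centring, the phi split was 5 and 5 in the first comparison and 6 and 4 in the second, and the tau split 15 and 6, then 11 and 8. The median log2 difference in the dxo1-1-labelled libraries was 1.48 for tau and 0.36 for phi members, beside 0.21 over all tested genes. In dxo1-2 it was 0.63 for tau and 0.62 for phi members, beside 0.25. The classes were compared by these counts and medians only, without a test of the difference between them.

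**Figure D1:**
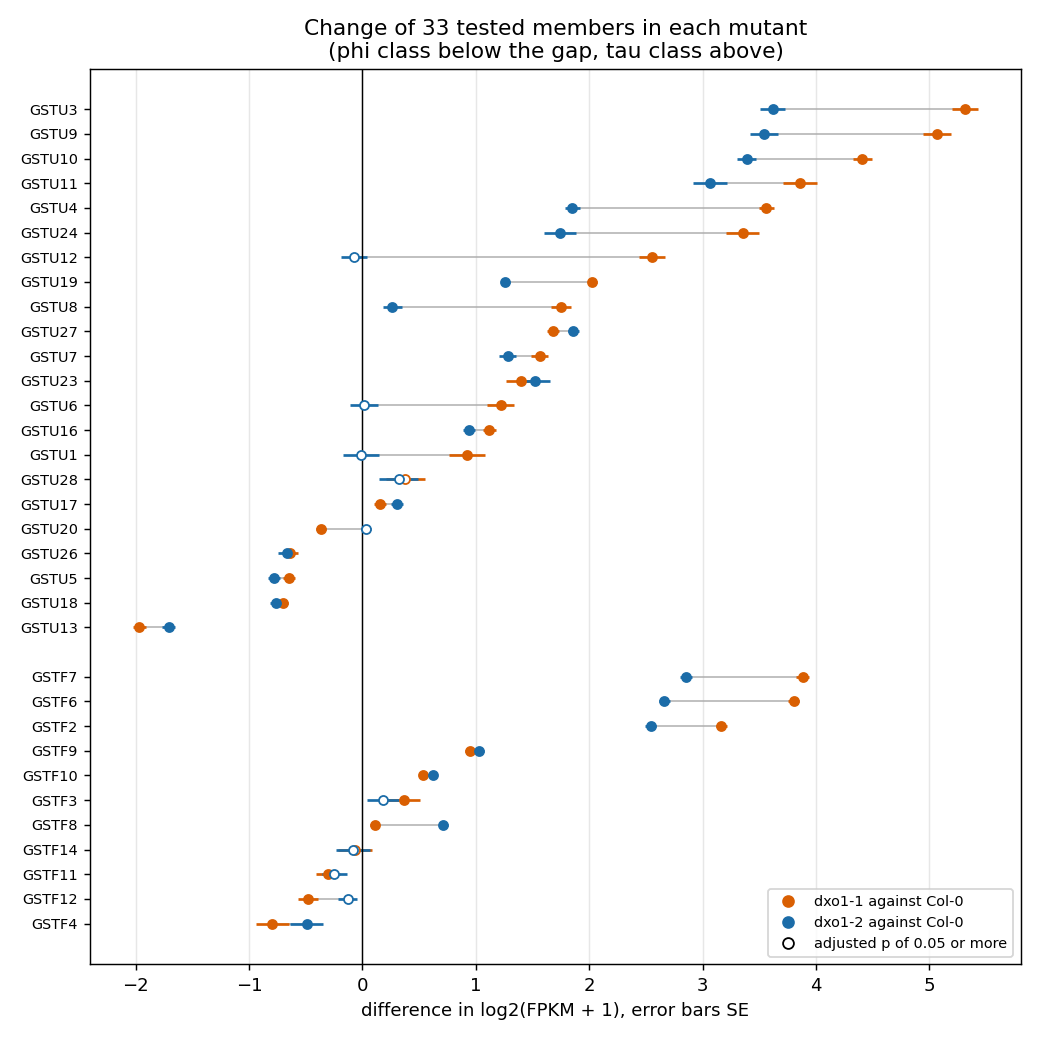
Difference from Col-0 in log2(FPKM + 1) of the 33 tested members in the dxo1-1-labelled libraries (orange) and in dxo1-2 (blue), with standard errors from limma; open symbols did not pass an adjusted p of 0.05. The farthest members lie above 3 log2 units, and GSTU13 lies lowest in both mutants.

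Among phi genes, GSTF2, GSTF6 and GSTF7 had the largest increases. GSTF2 binds indole compounds and camalexin, the main phytoalexin of Arabidopsis, and GSTF6 conjugates glutathione in camalexin synthesis. GSTF2 (AT4G02520) stood at 338, 365 and 343 FPKM in Col-0, 3181, 3317 and 2926 in the dxo1-1-labelled libraries and 2046, 2045 and 2017 in dxo1-2. The log2 difference from Col-0 was 3.17 ± 0.05 (SE) in the dxo1-1-labelled libraries and 2.54 ± 0.05 in dxo1-2 (limma adjusted p = 7.23e-13 and 5.10e-12). Every mutant library lay above every Col-0 library, and the ratio of mean FPKM was 9.01 and 5.84. GSTF6 (AT1G02930) stood at 131, 143 and 132 FPKM in Col-0, 1992, 1896 and 1814 in the dxo1-1-labelled libraries and 893, 872 and 820.4 in dxo1-2. Against Col-0, the fitted log2 differences were 3.80 ± 0.05 (SE) and 2.66 ± 0.05 in the order dxo1-1, dxo1-2 (limma adjusted p = 2.85e-13 and 5.10e-12). GSTF7 (AT1G02920) stood at 111, 117 and 104 FPKM in Col-0, 1713, 1654 and 1568 in the dxo1-1-labelled libraries and 849, 801 and 767 in dxo1-2. GSTF6 and GSTF7 neighbour each other and are close copies, so the counting may have divided reads between them. In all 3 genes the 3 groups were fully separated, with the dxo1-1-labelled libraries highest and Col-0 lowest. For GSTF7, limma gave 3.88 ± 0.05 (SE) and 2.85 ± 0.05 log2 units against Col-0 in the same order of mutants (adjusted p = 4.19e-13 and 6.20e-12). GSTF3, a close copy of GSTF2, was listed at 1.20 to 2.58 FPKM over the 9 libraries.

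The abundant phi genes GSTF9 and GSTF10 rose in both mutants, and GSTF8 was highest in dxo1-2. GSTF8 is known for a promoter that responds to salicylic acid and hydrogen peroxide, and GSTF10 is also known as the dehydration gene ERD13. GSTF9 (AT2G30860) stood at 1159, 1281 and 1147 FPKM in Col-0, 2334, 2351 and 2242 in the dxo1-1-labelled libraries and 2490.2, 2442 and 2378 in dxo1-2. The log2 difference from Col-0 was 0.95 ± 0.04 (SE) in the dxo1-1-labelled libraries and 1.03 ± 0.04 in dxo1-2 (limma adjusted p = 4.44e-09 and 3.03e-09). The Col-0 libraries were all lowest, and the difference of 0.08 ± 0.04 (SE) between the mutants did not pass. GSTF10 (AT2G30870) stood at 335, 364 and 341 FPKM in Col-0, 505, 493 and 511 in the dxo1-1-labelled libraries and 529, 539.9 and 528 in dxo1-2. Against Col-0, the fitted log2 differences were 0.54 ± 0.04 (SE) and 0.62 ± 0.04 in the order dxo1-1, dxo1-2 (limma adjusted p = 1.36e-07 and 5.03e-08). No Col-0 library overlapped either mutant. GSTF8 (AT2G47730) stood at 239.6, 240.0 and 232 FPKM in Col-0, 263, 261 and 243 in the dxo1-1-labelled libraries and 398, 389 and 382 in dxo1-2. For GSTF8, limma gave 0.11 ± 0.04 (SE) and 0.71 ± 0.04 log2 units against Col-0 in the same order of mutants (adjusted p = 0.029 and 2.57e-08). The mutants were separated, with dxo1-2 higher, and its rise held in sign under every alternative, while the small difference of GSTF8 in the dxo1-1-labelled libraries turned to -0.205 after centring and -0.282 under quantile normalization.

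The remaining tested phi genes were low or fell. GSTF4 fell in both mutants, by 0.80 and 0.49 log2 units. GSTF12, known as TT19, which carries anthocyanin toward the vacuole, was 17.2 to 21.4 FPKM in Col-0, 11.97 to 13.9 in the dxo1-1-labelled libraries and 16.6 to 17.5 in dxo1-2, and its difference passed the test in the former (-0.48 ± 0.09 log2 units, SE) but not in the latter (-0.13 ± 0.09). GSTF11, a partner of aliphatic glucosinolate synthesis, gave -0.31 (adjusted p = 0.0239) and -0.25 (adjusted p = 0.0593) by limma. Its dxo1-1-labelled libraries overlapped Col-0, while its dxo1-2 libraries all lay below Col-0. In dxo1-2, GSTF12 and GSTF11 pass as lower after centring (-0.484 and -0.600) and under quantile normalization (-0.510 and -0.633). GSTF3 gave 0.36 and 0.18, passing only in the dxo1-1-labelled libraries, and GSTF14 passed in neither, but passes as lower in both after centring (-0.377 and -0.437, adjusted p = 0.0271 and 0.0145). The limma calls of GSTF3, GSTF8 and GSTF11 in the dxo1-1-labelled libraries lapse when single libraries are left out: their adjusted p without Col-0 replicate 3 was 0.0675, 0.0952 and 0.0608.

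Among tau genes, a set that was low in Col-0 rose furthest in both mutants, led by GSTU3, GSTU9, GSTU10 and GSTU11. GSTU3, GSTU9 and GSTU12 have a Col-0 mean under 1 FPKM and reached the filter only through mutant libraries where they are high, so that a difference had to appear. GSTU3 (AT2G29470) stood at 0.59, 0.47 and 0.19 FPKM in Col-0, 57.0, 49.5 and 59.2 in the dxo1-1-labelled libraries and 15.2, 15.8 and 17.8 in dxo1-2. The log2 difference from Col-0 was 5.32 ± 0.11 (SE) in the dxo1-1-labelled libraries and 3.62 ± 0.11 in dxo1-2 (limma adjusted p = 1.00e-11 and 2.61e-10). The 3 groups were separated, with dxo1-2 between the others, and the Col-0 values rest on about 6, 4 and 2 fragments. GSTU9 (AT5G62480) stood at 0.20, 0.59 and 0.60 FPKM in Col-0, 46.5, 51.3 and 45.4 in the dxo1-1-labelled libraries and 16.2, 13.9 and 17.8 in dxo1-2. Against Col-0, the fitted log2 differences were 5.07 ± 0.12 (SE) and 3.54 ± 0.12 in the order dxo1-1, dxo1-2 (limma adjusted p = 2.69e-11 and 5.58e-10). Here too dxo1-2 lay between Col-0 and the dxo1-1-labelled libraries. GSTU10 (AT1G74590) stood at 3.18, 3.51 and 2.51 FPKM in Col-0, 85.1, 83.3 and 86.5 in the dxo1-1-labelled libraries and 39.9, 43.6 and 40.7 in dxo1-2. For GSTU10, limma gave 4.41 ± 0.08 (SE) and 3.39 ± 0.08 log2 units against Col-0 in the same order of mutants (adjusted p = 4.39e-12 and 4.19e-11). Col-0 was lowest and the groups did not overlap. GSTU11 (AT1G69930) stood at 1.09, 0.59 and 1.70 FPKM in Col-0, 30.1, 27.9 and 29.7 in the dxo1-1-labelled libraries and 16.3, 17.2 and 15.6 in dxo1-2. Its differences of 3.86 ± 0.15 and 3.06 ± 0.15 log2 units (SE) both passed. All 3 groups of GSTU11 were separated in the same order as before.

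GSTU4, GSTU24 and GSTU8 were higher in the dxo1-1-labelled libraries than in dxo1-2. GSTU24 is known for its part in the detoxification of the explosive trinitrotoluene. GSTU4 (AT2G29460) stood at 10.5, 10.97 and 10.7 FPKM in Col-0, 137, 129.8 and 145 in the dxo1-1-labelled libraries and 43.9, 42.4 and 37.7 in dxo1-2. The log2 difference from Col-0 was 3.56 ± 0.06 (SE) in the dxo1-1-labelled libraries and 1.85 ± 0.06 in dxo1-2 (limma adjusted p = 3.00e-12 and 5.63e-10). All groups were separated and dxo1-2 lay in between. GSTU24 (AT1G17170) stood at 1.19, 1.06 and 0.87 FPKM in Col-0, 24.1, 16.6 and 19.4 in the dxo1-1-labelled libraries and 6.33, 6.57 and 4.69 in dxo1-2. Against Col-0, the fitted log2 differences were 3.35 ± 0.14 (SE) and 1.74 ± 0.14 in the order dxo1-1, dxo1-2 (limma adjusted p = 2.40e-09 and 7.42e-07). Its groups did not overlap either. GSTU8 (AT3G09270) stood at 9.18, 10.7 and 9.75 FPKM in Col-0, 36.4, 35.2 and 35.1 in the dxo1-1-labelled libraries and 13.3, 12.7 and 10.4 in dxo1-2. In the dxo1-1-labelled libraries GSTU8 was 1.75 ± 0.09 log2 units above Col-0 (limma adjusted p = 8.06e-09), and in dxo1-2 0.26 ± 0.09 (adjusted p = 0.018), which turns to -0.0890 after centring and -0.0677 under quantile normalization. The dxo1-2 libraries of GSTU8 overlapped with Col-0.

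GSTU7, GSTU16, GSTU23 and GSTU27 rose in both mutants. GSTU7 (AT2G29420) stood at 23.7, 26.8 and 20.7 FPKM in Col-0, 71.02, 72.7 and 71.6 in the dxo1-1-labelled libraries and 59.2, 57.4 and 59.8 in dxo1-2. The log2 difference from Col-0 was 1.56 ± 0.08 (SE) in the dxo1-1-labelled libraries and 1.28 ± 0.08 in dxo1-2 (limma adjusted p = 6.13e-09 and 4.10e-08). Col-0 lay lowest without overlap. GSTU16 (AT1G59700) stood at 22.9, 19.9 and 21.5 FPKM in Col-0, 48.2, 47.3 and 47.3 in the dxo1-1-labelled libraries and 42.7, 40.3 and 42.9 in dxo1-2. The log2 differences of GSTU16 were 1.12 ± 0.06 and 0.94 ± 0.06 (SE). Both mutants lay above Col-0 in every library. GSTU23 (AT1G78320) stood at 0.95, 0.76 and 1.34 FPKM in Col-0, 4.32, 4.67 and 3.90 in the dxo1-1-labelled libraries and 5.29, 3.89 and 5.15 in dxo1-2. Those of GSTU23 were 1.40 ± 0.14 and 1.52 ± 0.14 (SE). The mutants overlapped each other, and both lay above Col-0. GSTU27 (AT3G43800) stood at 34.4, 37.4 and 36.4 FPKM in Col-0, 111, 119.6 and 123 in the dxo1-1-labelled libraries and 135, 137 and 128 in dxo1-2. Against Col-0, the fitted log2 differences were 1.68 ± 0.05 (SE) and 1.86 ± 0.05 in the order dxo1-1, dxo1-2 (limma adjusted p = 1.75e-10 and 1.12e-10). GSTU27 was slightly higher in dxo1-2 than in the dxo1-1-labelled libraries, without overlap.

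GSTU12, GSTU6 and GSTU1 rose in the dxo1-1-labelled libraries and did not pass the test in dxo1-2, where after centring all 3 pass as lower (-0.431, -0.342 and -0.368 log2 units, limma adjusted p = 0.00477, 0.0243 and 0.0382). GSTU12 (AT1G69920) stood at 0.35, 0.41 and 0.51 FPKM in Col-0, 7.72, 7.29 and 7.06 in the dxo1-1-labelled libraries and 0.28, 0.29 and 0.48 in dxo1-2. The log2 difference was 2.55 ± 0.11 (SE) in the dxo1-1-labelled libraries and -0.08 ± 0.11 in dxo1-2, the latter with a limma adjusted p of 0.553. In Col-0 and dxo1-2 the ranges overlapped, and the Col-0 values rest on about 4 to 6 fragments each. GSTU6 (AT2G29440) stood at 3.81, 4.57 and 5.28 FPKM in Col-0, 12.6, 11.5 and 11.5 in the dxo1-1-labelled libraries and 5.56, 4.03 and 4.22 in dxo1-2. Its differences were 1.22 ± 0.12 and 0.01 ± 0.12 (SE), and the second, which did not pass, turns to -0.342 after centring. Every library labelled dxo1-1 lay above all Col-0 libraries, while dxo1-2 overlapped them. GSTU1 (AT2G29490) stood at 3.10, 5.58 and 5.45 FPKM in Col-0, 9.90, 8.92 and 9.87 in the dxo1-1-labelled libraries and 4.66, 4.15 and 4.78 in dxo1-2. GSTU1 gave 0.92 ± 0.16 and -0.02 ± 0.16 (SE). Its dxo1-2 libraries lay within the Col-0 range, in which replicate 1 was lowest.

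The most abundant tau genes in Col-0 moved in different directions. GSTU20 acts in aliphatic glucosinolate synthesis and is also known as FIP1, a partner of the jasmonate-conjugating enzyme FIN219, GSTU5 is an auxin-responsive gene, and GSTU13 acts in indole glucosinolate metabolism during immunity. GSTU19 (AT1G78380) stood at 439, 447 and 434 FPKM in Col-0, 1810.3, 1819 and 1761 in the dxo1-1-labelled libraries and 1102, 1068 and 1001 in dxo1-2. The log2 difference from Col-0 was 2.03 ± 0.04 (SE) in the dxo1-1-labelled libraries and 1.26 ± 0.04 in dxo1-2 (limma adjusted p = 4.47e-12 and 2.14e-10). The groups were separated, dxo1-2 in between. GSTU20 (AT1G78370) stood at 582, 621 and 559 FPKM in Col-0, 466, 452 and 446 in the dxo1-1-labelled libraries and 623, 592 and 584 in dxo1-2. GSTU20 fell by 0.37 log2 units in the dxo1-1-labelled libraries (limma adjusted p = 1.44e-05), and in dxo1-2 it differed by 0.03 ± 0.04 (SE, adjusted p = 0.561), which turns to -0.323 after centring and -0.248 under quantile normalization. The libraries labelled dxo1-1 lay below all others, and dxo1-2 overlapped Col-0. GSTU5 (AT2G29450) stood at 479, 548 and 478 FPKM in Col-0, 324, 316 and 317 in the dxo1-1-labelled libraries and 292, 296 and 285 in dxo1-2. Against Col-0, the fitted log2 differences were -0.65 ± 0.05 (SE) and -0.78 ± 0.05 in the order dxo1-1, dxo1-2 (limma adjusted p = 3.78e-07 and 9.03e-08). Every Col-0 library lay above every mutant library. GSTU13 (AT1G27130) stood at 149, 165 and 149 FPKM in Col-0, 41.02, 36.4 and 38.9 in the dxo1-1-labelled libraries and 48.4, 46.2 and 45.2 in dxo1-2. For GSTU13, limma gave -1.97 ± 0.06 (SE) and -1.71 ± 0.06 log2 units against Col-0 in the same order of mutants (adjusted p = 1.19e-10 and 4.86e-10). GSTU13 was the member with the largest fall in each mutant.

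GSTU18 fell by 0.71 and 0.76 log2 units and GSTU26 fell by 0.64 and 0.67 in the dxo1-1-labelled libraries and in dxo1-2. GSTU17, known as the early dehydration gene ERD9, gave 0.16 and 0.30, which turn to -0.156 and -0.0483 after centring and to -0.248 and -0.0934 under quantile normalization. Its call in the dxo1-1-labelled libraries lapses without Col-0 replicate 1, Col-0 replicate 3 or replicate 2 of that mutant. GSTU28 passed in neither mutant.

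**Figure D2:**
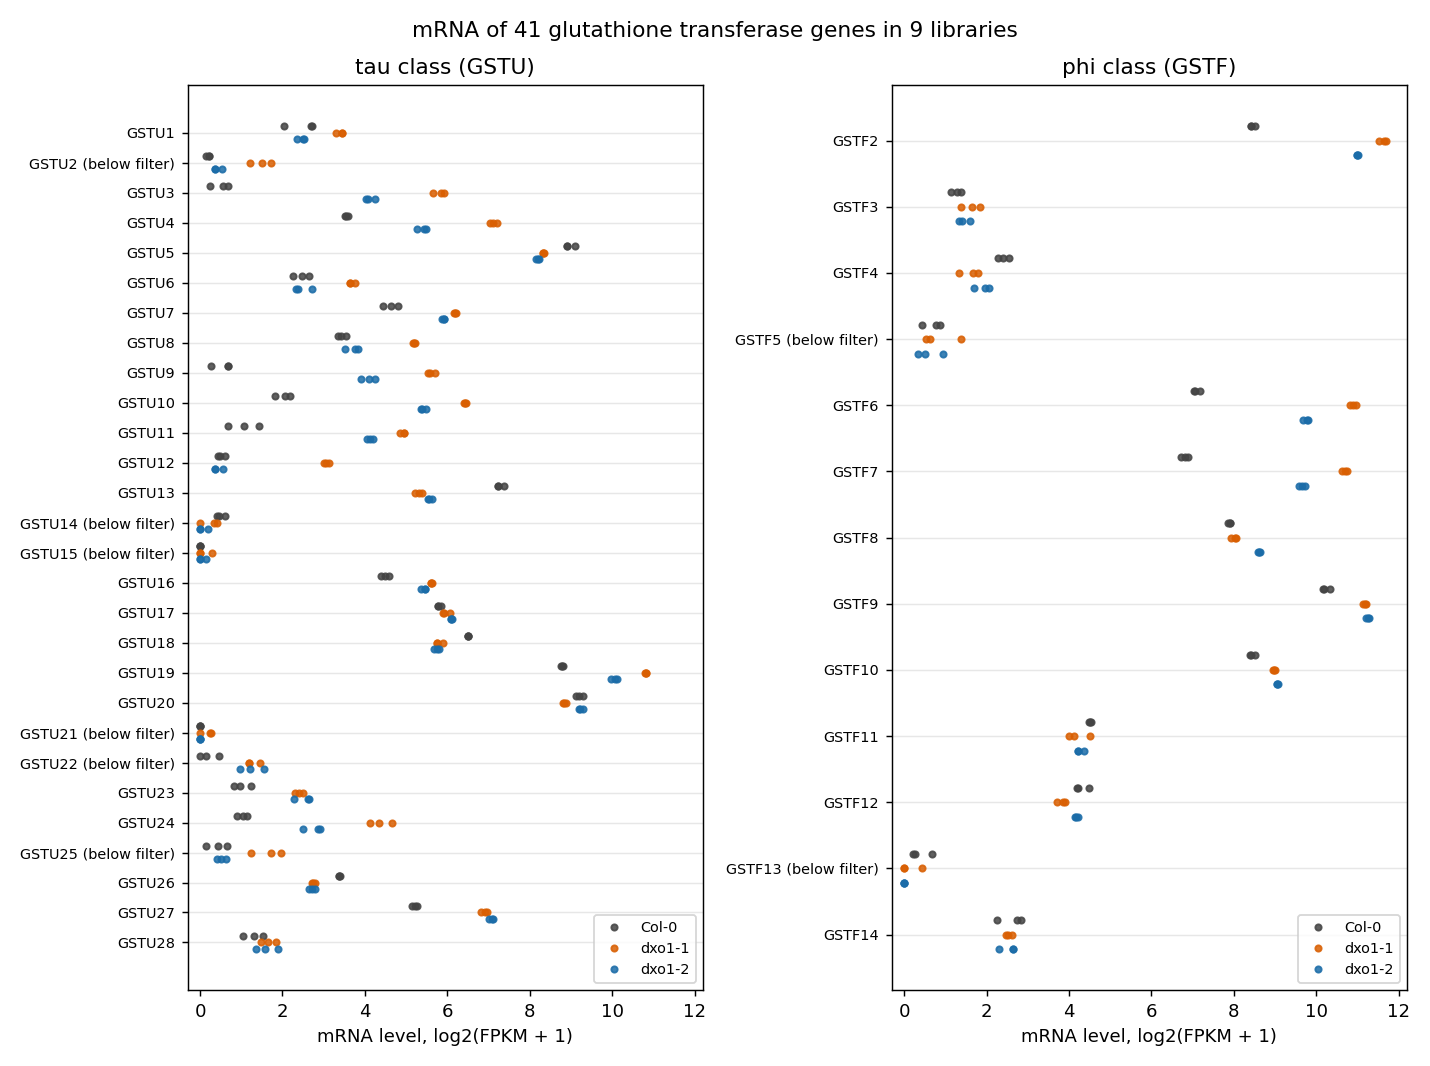
mRNA level of all 41 members in each of the 9 libraries as log2(FPKM + 1), tau class left and phi class right, 3 points per group. GSTU3, GSTU9 and GSTU10 sit at the left in Col-0 and far to the right in both mutants, and the abundant GSTF9 and GSTU5 shift by less than GSTF2.

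The phi sum was above Col-0 in both mutants with and without centring, while the tau sum in dxo1-2 was above Col-0 only before centring. Summed over 28 genes, tau FPKM averaged 1959 ± 90.9 (SD over n = 3 libraries) in Col-0, 3419 ± 30.6 in the dxo1-1-labelled libraries and 2522 ± 84.1 in dxo1-2, with ratios of 1.75 and 1.29 to Col-0. Summed over 13 genes, phi FPKM was 2427 ± 121, 9795 ± 387 and 7107 ± 160, with ratios of 4.04 and 2.93. The Col-0 range did not overlap that of either mutant in either class, and these sums were not tested. After centring, which was added after the values were seen, the log2 difference of the tau sum was 0.49 in the dxo1-1-labelled libraries and 0.011 in dxo1-2, the latter overlapping Col-0, and that of the phi sum was 1.70 and 1.20, without overlap. The leading member changed. GSTU20 held 30.0% of the tau sum in Col-0, and GSTU19 held 52.5% in the dxo1-1-labelled libraries and 41.9% in dxo1-2. In the phi sum GSTF9 held 49.3% in Col-0 and 34.3% in dxo1-2, and GSTF2 held 32.1% in the dxo1-1-labelled libraries.

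**Figure D3:**
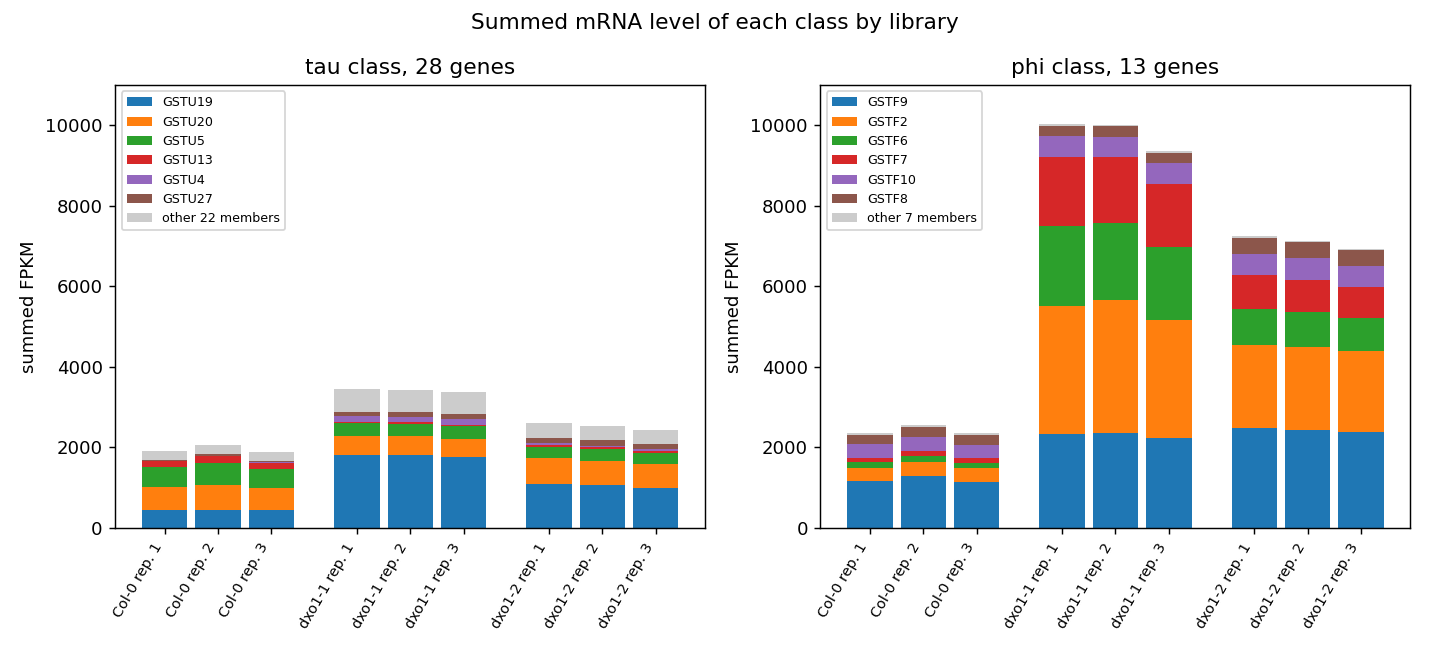
Summed FPKM of the tau class (28 genes, left) and the phi class (13 genes, right) in each library, stacked by the 6 members named in each legend and the other members in grey. The phi stacks reach 9348 to 10025 FPKM in the dxo1-1-labelled libraries, against 2351 to 2566 in Col-0.

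Between the mutants, most members that differed were lower in dxo1-2. Against the dxo1-1-labelled libraries, 16 members were lower, 6 higher and 11 did not pass, beside 15.7% called lower and 22.3% higher among all tested genes. A log2 difference of at least 1 was passed downward by 10 members and upward by none, beside 1.62% and 0.332%. Of the tau members 13 were lower and 4 higher, and of the phi members 3 and 2. The median log2 difference was -0.52 for tau and 0.06 for phi members, beside 0.06 over all tested genes. The tau members with the largest differences were GSTU12 (-2.63 ± 0.11, SE), GSTU4 (-1.71 ± 0.06), GSTU3 (-1.70 ± 0.11) and GSTU24 (-1.61 ± 0.14), and of the phi members GSTF6 (-1.14 ± 0.05), GSTF7 (-1.03 ± 0.05) and GSTF2 (-0.62 ± 0.05). GSTU12, which is in the counts above, reached the filter only through the dxo1-1-labelled libraries, so its difference between the mutants had to appear. Higher in dxo1-2 were GSTF8 (0.61 ± 0.04), GSTU20 (0.40 ± 0.04), GSTF12 (0.35 ± 0.09), GSTU13 (0.26 ± 0.06), GSTU27 (0.18 ± 0.05) and GSTU17 (0.15 ± 0.05). The smallest of these calls, GSTU17 at a limma adjusted p of 0.0452, is lost under centring and with several single libraries left out, as are GSTU27 and the lower call of GSTU16 with single mutant libraries left out.

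**Figure D4:**
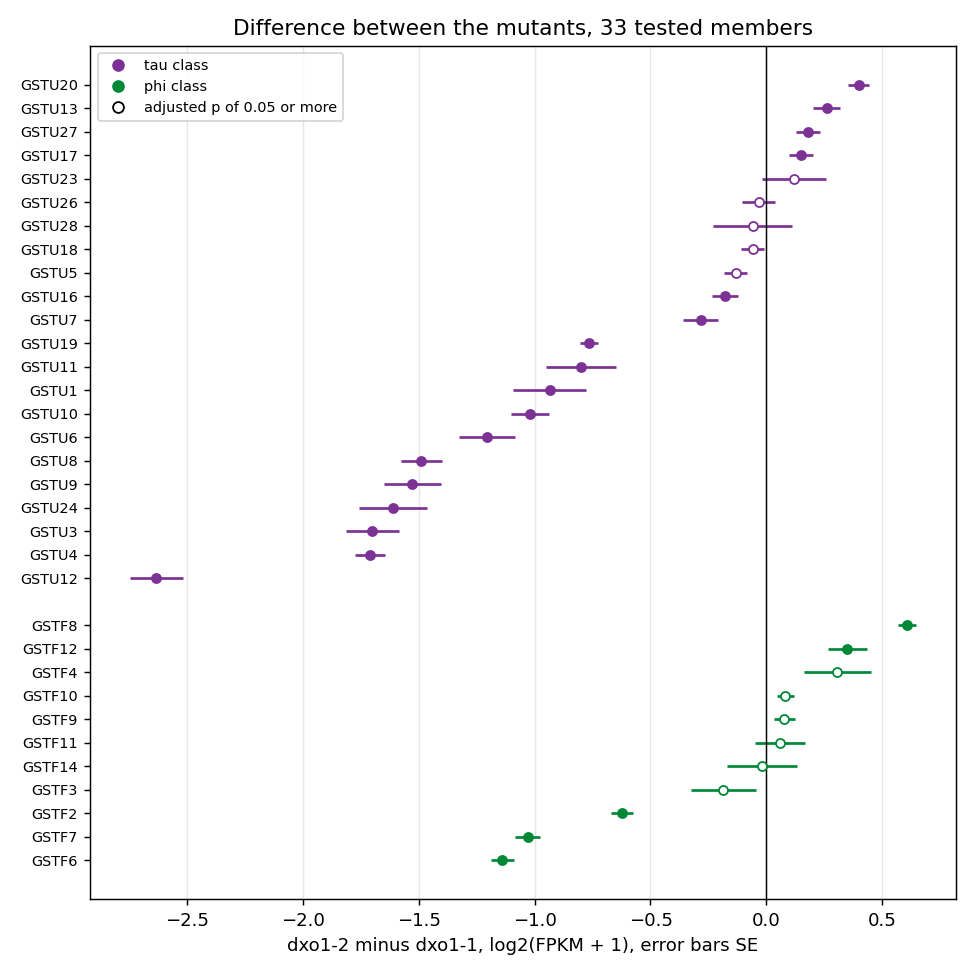
Difference of dxo1-2 from the dxo1-1-labelled libraries in log2(FPKM + 1) for the 33 tested members, tau class (purple) above the gap and phi class (green) below it, with standard errors from limma; open symbols did not pass. GSTU12 lies farthest to the left and GSTF8 farthest to the right.

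By gene order in RefSeq, 27 members lay in 8 tandem arrays with at most 1 other coding gene between neighbours, and 14 lay alone. Opposite calls occurred within 5 of 7 arrays with at least 2 tested members in the dxo1-1-labelled libraries and within 4 in dxo1-2. After centring they occurred within 4 and then 5. Centring turned GSTU17 in sign in both mutants, which ended the opposite calls of its array. In dxo1-2, GSTU12 (-0.431) and GSTU20 (-0.323) then passed as lower in arrays that also hold higher members. No share over other neighbouring genes was computed, so nothing particular to these arrays is read from the counts. Tandem copies may share reads, so each array was also summed, an analysis added after the values were seen. The array of GSTU1 to GSTU7, where GSTU5 fell and its neighbours GSTU4 and GSTU3 rose, gave 0.16 ± 0.05 (SE) and -0.39 ± 0.05 log2 units against Col-0, and the first turns to -0.157 after centring and -0.0959 under quantile normalization. It falls to 0.0245 with Col-0 replicate 2 alone (limma adjusted p = 0.638) and loses its call without Col-0 replicate 1 or 3 (adjusted p = 0.0709 and 0.0701). The array of GSTU19 to GSTU23 gave 1.13 ± 0.04 and 0.69 ± 0.04, and the array of GSTF4 to GSTF7 gave 3.82 ± 0.05 and 2.73 ± 0.05. GSTU24 to GSTU26 gave 1.28 ± 0.08 and 0.12 ± 0.08, and the second did not pass (limma adjusted p = 0.218) and turns to -0.233 after centring and -0.219 under quantile normalization. The pairs GSTU11 and GSTU12 (3.91 ± 0.14 and 2.82 ± 0.14) and GSTF9 and GSTF10 (0.87 ± 0.04 and 0.95 ± 0.04) rose as sums. GSTU13 with GSTU14 (-1.96 ± 0.06 and -1.71 ± 0.06) and GSTU17 with GSTU18 (-0.32 ± 0.05 and -0.26 ± 0.05) fell as sums.

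**Figure D5:**
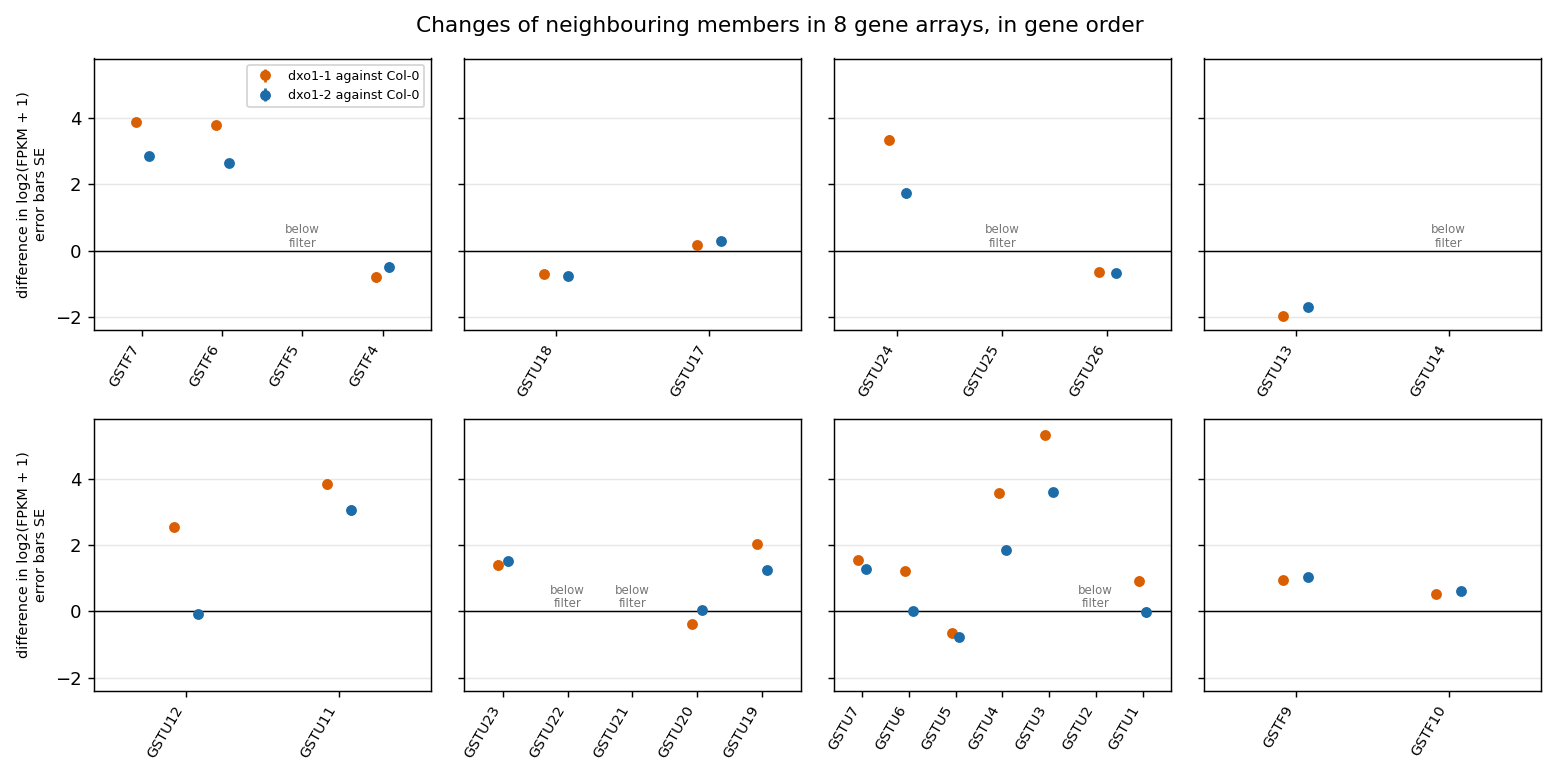
Difference from Col-0 in log2(FPKM + 1) along the 8 arrays of neighbouring members, in gene order, with standard errors mostly smaller than the symbols; members under the level filter have no point. In the array of 7 tau genes GSTU5 lies below 0 beside GSTU3 and GSTU4 far above it.

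The 8 members under the filter were GSTU2, GSTU14, GSTU15, GSTU21, GSTU22, GSTU25, GSTF5 and GSTF13. In a fit without the filter, GSTU2 gave 1.29 log2 units and GSTU25 1.23 in the dxo1-1-labelled libraries, both past the test, and neither passed in dxo1-2. GSTU25 is, with GSTU24, a known trinitrotoluene-detoxifying enzyme gene. GSTU22 passed in both mutants, with 1.07 in the dxo1-1-labelled libraries and 1.05 in dxo1-2. GSTU14 and GSTF13 passed as lower in dxo1-2, at -0.42 and -0.39, and GSTU15, GSTU21 and GSTF5 passed in neither comparison with Col-0. These calls rest on few fragments. GSTU14 had about 4, 2 and 3 in Col-0 and 0, 1 and 0 in dxo1-2. GSTF13 had about 1, 1 and 4 in Col-0 and 0, 0 and 0 in dxo1-2. In Col-0, GSTU2 had about 2, 1 and 2, GSTU22 0, 1 and 4, and GSTU25 1, 3 and 6. Of all 24218 genes in that fit, 9709 were called higher and 5305 lower in the dxo1-1-labelled libraries. In dxo1-2 these counts were 9871 and 4312.

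Small RNA at the members was scarce. Over the 12 libraries, whose summed reads of 21, 22 and 24 nt ranged from 173804 to 1403794, the members held 2260 of 6665864 reads, or 0.0339%, and 9 of 41 had none. Of these reads 70.5% came from 7 members with at least 100 each. A mean of 1 normalized read was reached by 15 members at 21 nt, 13 at 22 nt and 8 at 24 nt. With limma, 1 member passed in 1 of 9 comparisons with Col-0. In dxo1-2, dcl4-2 and dxo1-2dcl4-2, in that order, 0.938%, 0.862% and 3.41% of all tested loci were called at 21 nt, 0.282%, 1.14% and 4.72% at 22 nt, and 0.13%, 0.366% and 5.71% at 24 nt. The member was GSTU19, at 22 nt in dcl4-2. GSTU19 had 5, 24 and 10 reads of 22 nt in Col-0, none in the dcl4-2 libraries, 1, 1 and 9 in dxo1-2 and 0, 15 and 13 in dxo1-2dcl4-2. These reads are not scaled to depth, which differed between genotypes. Summed reads per library were 173804 to 482309 in Col-0 and 195104 to 303428 in dcl4-2. They were 288852 to 893943 in dxo1-2 and 728418 to 1403794 in dxo1-2dcl4-2. The count of 0 in dcl4-2 allows up to 3 reads per library. The adjusted p was 0.0394 with limma and 0.0741 with edgeR's quasi-likelihood test on the recovered reads. In the other 8 comparisons limma and edgeR called 0 members, and at an unadjusted p under 0.05 limma held between 0 and 2 members per comparison, edgeR between 0 and 4. At this depth, smaller differences in small RNA were not detectable.

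Genes that work beside these enzymes were described from lists, each with the tested members called higher and lower in the dxo1-1-labelled libraries and then in dxo1-2, and with the centred split after it. Other glutathione transferase classes held 6 higher and 4 lower of 12 in both (5 and 6, then 4 and 6 centred). The lambda gene GSTL1 gave 4.10 and 2.42 log2 units, the microsomal MGST 2.28 and 1.62, and GSTZ1, of tyrosine breakdown, 2.23 and 1.74. Glutathione synthesis, recycling and turnover held 2 and 2, then 2 and 5, of 8 (2 and 6, then 1 and 6 centred). The glutathione reductase gene GR1 rose by 1.25 and 1.07, while GGT1, which breaks down glutathione outside the cell, gave -0.57 and -0.43 and GSH2, which completes glutathione, gave -0.51 and -0.54. Of 3 vacuolar transporters for conjugates, 2 were higher in each mutant, with none lower and then 1 lower (2 and 1, then 1 and 1 centred), and ABCC3 rose by 3.04 and 2.31.

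Glutathione peroxidases held 6 higher and 1 lower, then 5 and 1, of 7 (5 and 1 in both centred), led by GPX5 with 1.80 and 1.68. TGA factors, which bind promoters of glutathione transferase genes, with their partner SCL14 held 8 higher and none lower, then 7 and none, of 8 (5 and 0, then 5 and 1 centred), led by TGA7 with 1.39 and 1.46. Chemical detoxification genes held 8 and 2, then 6 and 2, of 10 (7 and 2, then 6 and 4 centred), with the glucosyltransferase gene UGT74E2 at 3.97 and 2.11, the aldo-keto reductase gene AKR4C9 at 2.81 and 2.53 and CYP81D8, a cytochrome P450 gene, at 2.70 and 2.32. The related CYP81D11, singled out after its values were seen, was lower at -1.80 and -2.02. Anthocyanin synthesis, whose product GSTF12 carries, held 5 and 3, then 6 and 2, of 10 (4 and 4, then 5 and 3 centred), with chalcone synthase CHS at 2.14 and 2.22. These counts were read beside the 49.6% and 51.8% of all tested genes called higher and the 26% and 21.2% called lower. After centring, 6325 and then 5932 of all 18378 genes were called higher, and 8002 and then 7807 lower. The lists were not tested as sets.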

How the data were processed

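The authors deposited FPKM values per gene for the mRNA libraries, made with TopHat2 2.1.0 and RSEM 2.1.30 on TAIR10 per the submitters' processing notes, with settings not given in the sources used here. Their deposited small RNA tables hold a normalized signal per locus and size class, from Bowtie and TAIR10 per the same notes, in which every value was a whole multiple of 1 step per library (tolerance 0.001), which held for 100% of values, so reads were recovered. Other deposited columns were gene lengths.

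Differences were tested with limma 3.58.1 (R 4.3.3, trend) on log2(FPKM + 1) for genes averaging 1 FPKM or more, all 9 mRNA libraries in 1 fit, Benjamini-Hochberg over 18378 genes. A log2 difference on this scale understates changes of low genes. Small RNA used log2(signal + 0.5), a mean of at least 1, per size class, and edgeR 4.0.16 on recovered reads as an alternative (7 to 575 loci called per comparison, beside 11 to 484 with limma). The tests were checked on simulated data. Standard errors and SDs reflect the spread between libraries, while the limit of 3 reads given for a count of 0 covers counting error only. No member was chosen by a threshold on its values, but the family and the gene lists were chosen with earlier results of these data known. Values in every library were given for members that passed with an absolute log2 difference of at least 1 in a mutant or 0.5 between mutants, or that were among the 4 highest of their class in Col-0; of each list up to 4 genes, largest change first, could be named. RefSeq (TAIR10.1) served for names and gene order only.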

Additional observations from a re-analysis of the deposited data

Results flagged for a closer look

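For 3 members the estimates against Col-0 had opposite signs in the 2 mutants and the difference between the mutants passed limma's test itself. GSTU12 differed by -2.63 log2 units (dxo1-2 minus the dxo1-1-labelled libraries), GSTU1 by -0.934, and GSTU20 by 0.398. The adjusted p values were 7.97e-08, 0.000959 and 5.59e-05, and each held in 3 of 3 against 3 of 3 libraries without overlap. With FPKM as deposited, none of the 3 genes passed in dxo1-2 against Col-0. After centring, GSTU12 (-0.431) and GSTU1 (-0.368) pass there as lower, GSTU12 also under quantile normalization (-0.486), and GSTU20 turns to -0.323, which gives it 1 sign in both mutants. GSTU12 reached the filter of 1 FPKM only through the dxo1-1-labelled libraries, where it is high, so its test had to find a difference. All comparisons with Col-0 share the same 3 Col-0 libraries.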

How the results depend on the processing

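Deviations of mRNA libraries with the same replicate number were weakly correlated (mean 0.0381, range -0.0337 to 0.0945). For libraries with different numbers the mean was -0.0190 (range -0.104 to 0.0890). These values cannot tell whether the numbers pair the libraries, and the main fits used group only. The replicate block kept every count of mRNA calls within 1.5 times; it brought GSTU28 in the dxo1-1-labelled libraries and GSTU5 between the mutants past the threshold (limma adjusted p = 0.0263 and 0.0485).

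Centring each library on its median gave 5 phi members lower in the dxo1-1-labelled libraries, and in dxo1-2 12 members lower in all, 8 tau and 4 phi. Quantile normalization gave 10 members and 4 phi members lower in dxo1-2, and 4 phi members higher in dxo1-2 than in the dxo1-1-labelled libraries. Without the filter, or with only the 2 groups compared, 2 phi members were lower in dxo1-2. Under centring and quantile normalization in that order, signs turned for GSTU17 in the dxo1-1-labelled libraries (-0.156, -0.248) and in dxo1-2 (-0.0483, -0.0934), GSTF8 in the former (-0.205, -0.282), and GSTU8 (-0.0890, -0.0677) and GSTU20 (-0.323, -0.248) in dxo1-2. GSTU6 in dxo1-2 turned under centring (-0.342). GSTU12, GSTF11, GSTF12 and GSTF14 passed as lower in dxo1-2 under both, GSTU1 and GSTU6 under centring. The GSTU1 to GSTU7 sum turned in the dxo1-1-labelled libraries (-0.157, -0.0959) and the GSTU24 to GSTU26 sum in dxo1-2 (-0.233, -0.219). The cause was not tested.

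Leaving out 1 library at a time gave 20 to 24 members higher and 7 to 8 lower in the dxo1-1-labelled libraries, 18 to 19 and 5 to 6 in dxo1-2, and 4 to 7 and 15 to 17 between the mutants. It gave 1 to 2 phi members lower in dxo1-2 and 2 to 4 tau members higher in dxo1-2 than in the dxo1-1-labelled libraries. With Col-0 replicate 2 alone, GSTU17, GSTF3, GSTF8 and GSTF11 lost their calls in the dxo1-1-labelled libraries, and GSTU8 and GSTF4 in dxo1-2, while GSTF12 in dxo1-2 (lower) and GSTU5 between the mutants gained one.

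The 22 nt call of GSTU19 in dcl4-2 went to 0 members without the filter, with edgeR, and in 11 of 12 fits that left out a library (0 to 1). In dxo1-2dcl4-2 such fits gave 0 to 1 members higher at 21 nt and at 22 nt. Merging near-identical copies by protein identity was not run, as no protein sequences were used here. Low values rest on few fragments, which limits genes such as GSTU3, GSTU9 and GSTU12 in Col-0.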
